A study of Homo sapiens with 5 samples.

Results

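Replication origins that overlap the coding sequence of a gene away from its start were examined in the ini-seq 2 map of the human bladder carcinoma line EJ30. An origin was counted here, and is called an exon origin, when its 3-hour interval overlapped coding sequence of the canonical transcript of a protein-coding gene, lay more than 1 kb from the 5' end of every protein-coding and lncRNA gene record and contained no 3' end of a protein-coding gene. The rule used the GENCODE 44 annotation on hg38 and no measured value. It selected 3881 of the 23905 origins (16.2%).

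Eukaryotic origins are sites where the MCM helicase is loaded in G1 phase and fired in S phase. Human origins have no consensus sequence, and many lie at CpG islands and promoters, where chromatin is open. Coding exons are on average richer in GC than the introns around them and evolve under constraint on the protein, so an origin over an exon lies in sequence that also serves another purpose. G-quadruplex (G4) motifs, runs of guanines that can fold into a 4-stranded structure, are common at mapped origins.

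The origins came from nuclei of mimosine-arrested, late G1 phase EJ30 cells that were incubated in HeLa cytosolic extract with Br-dUTP, so that replicated DNA became heavy-light (HL) and unreplicated DNA stayed light-light (LL). The first reaction ran for 3 hours, and its list gives the efficiency of each origin, HL/(HL + LL), from 0.8 to 1. The second reaction ran for 15 minutes, and its list of 10181 origins gives a Z-score, which ranks origins of that list only. Short nascent strands (SNS-seq) of EJ30 cells were mapped in a 0.5 to 2 kb and a 2 to 4 kb fraction, with 147657 and 184966 peaks given by position only. Each condition is 1 list from 1 cell line without a genetic change, and no list holds read counts, so neither the depth behind an origin nor the error between replicates can be given.

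The working name for these origins, origins in internal coding exons, was true of 2276 (58.6%), which touched neither the first nor the last coding exon of their gene. The first coding exon was touched by 800 (20.6%), the last by 695 (17.9%) and both by 14, and 96 lay in genes with a single coding exon. Gene records also hide starts inside genes: 2086 exon origins (53.7%) lay within 1 kb of the 5' end of an annotated transcript of a coding or lncRNA gene, against 348 of 3069 intronic origins (11.3%), and 1425 contained such a 5' end. Intronic origins touch no exon of any transcript and so cannot contain such an end, and these shares differ in part by definition. Results are therefore given for all exon origins, for those near and away from transcript 5' ends, and for the 1136 that touched only internal coding exons and lay more than 1 kb from every transcript 5' end. Coding and non-coding sequence usually shared an origin. The median exon origin was 28.9% coding, with quartiles of 14.7 and 51%, only 257 were wholly coding, and 2102 (54.2%) overlapped a UTR of some transcript.

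The sequences below are the central 200 bp of 6 exon origins, read from hg38 on the coding strand of the gene, with bases of the canonical coding sequence in capitals. They show the highest efficiencies, the highest Z-score at 15 minutes, a high efficiency without a G4 motif, the lowest efficiency and a large number of G4 motifs.

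TRAPPC12, chr2:3388101-3388300, plus strand: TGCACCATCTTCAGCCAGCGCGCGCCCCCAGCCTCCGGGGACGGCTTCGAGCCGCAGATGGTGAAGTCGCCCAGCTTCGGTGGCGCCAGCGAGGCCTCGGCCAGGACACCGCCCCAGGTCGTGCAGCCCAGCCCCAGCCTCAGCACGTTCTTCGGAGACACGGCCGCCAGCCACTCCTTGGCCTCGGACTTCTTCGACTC

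RNF39, chr6:30071351-30071550, minus strand: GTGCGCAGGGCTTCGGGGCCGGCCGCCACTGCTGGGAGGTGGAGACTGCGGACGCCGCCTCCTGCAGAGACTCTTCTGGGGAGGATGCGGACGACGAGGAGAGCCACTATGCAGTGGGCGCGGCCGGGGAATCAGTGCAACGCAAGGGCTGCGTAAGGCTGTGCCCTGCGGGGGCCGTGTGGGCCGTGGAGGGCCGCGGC

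SETD1A, chr16:30979551-30979750, plus strand: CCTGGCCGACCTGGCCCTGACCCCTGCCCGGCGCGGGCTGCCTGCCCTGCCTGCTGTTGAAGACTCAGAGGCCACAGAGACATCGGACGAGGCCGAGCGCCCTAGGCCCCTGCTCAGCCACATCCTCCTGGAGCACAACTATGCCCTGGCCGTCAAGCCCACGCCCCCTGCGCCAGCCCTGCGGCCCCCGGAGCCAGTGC

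TAF4, chr20:62064351-62064550, minus strand: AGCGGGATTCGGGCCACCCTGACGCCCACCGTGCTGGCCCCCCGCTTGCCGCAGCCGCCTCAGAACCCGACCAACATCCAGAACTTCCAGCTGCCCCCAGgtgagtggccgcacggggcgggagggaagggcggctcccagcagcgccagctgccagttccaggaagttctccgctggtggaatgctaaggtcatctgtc

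PRKCZ, chr1:2056251-2056450, plus strand: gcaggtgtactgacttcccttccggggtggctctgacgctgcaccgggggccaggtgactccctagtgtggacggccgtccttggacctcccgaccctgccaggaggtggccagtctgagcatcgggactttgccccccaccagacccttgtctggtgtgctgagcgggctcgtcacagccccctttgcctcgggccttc

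JAG2, chr14:105149901-105150100, minus strand: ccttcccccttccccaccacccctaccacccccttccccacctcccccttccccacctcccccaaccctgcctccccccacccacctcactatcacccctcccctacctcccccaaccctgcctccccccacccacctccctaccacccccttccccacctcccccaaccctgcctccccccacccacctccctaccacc

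The TRAPPC12, RNF39 and SETD1A stretches are wholly coding and read through exons of a vesicle-tethering subunit, a RING finger protein and a histone H3K4 methyltransferase. They hold 70, 72 and 72% GC with 20, 20 and 13 CpG dinucleotides. The TAF4 stretch, from a TFIID subunit, holds 100 coding bases and then the splice donor of its first coding exon. The PRKCZ stretch, from a protein kinase C gene, has no coding base, since only 17 bases of that origin were coding. The JAG2 stretch, from a Notch ligand gene, is a non-coding array of C runs without a CpG, and the same runs are G runs on the template strand.

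Exon origins were less efficient than origins at gene starts and only slightly more efficient than origins in introns. Their mean efficiency was 0.858 (SD over origins 0.047, n = 3881) with a median of 0.845, quartiles of 0.819 and 0.889 and a range from 0.8 to 1. Intronic origins, which lay wholly inside a coding gene, touched no exon of any transcript and obeyed the same 1 kb limit, had a mean of 0.842 (SD 0.0377, n = 3069). The 9817 origins within 1 kb of a coding gene start had a mean of 0.907 (SD 0.0463). The distributions overlapped over the whole range. Divided into the 3 equal classes of the whole map, with limits at 0.842 and 0.906, 711 exon origins (18.3%) were of high, 1315 of medium and 1855 (47.8%) of low efficiency, where 33.3% of all origins were in the high class.

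**Figure D1:**
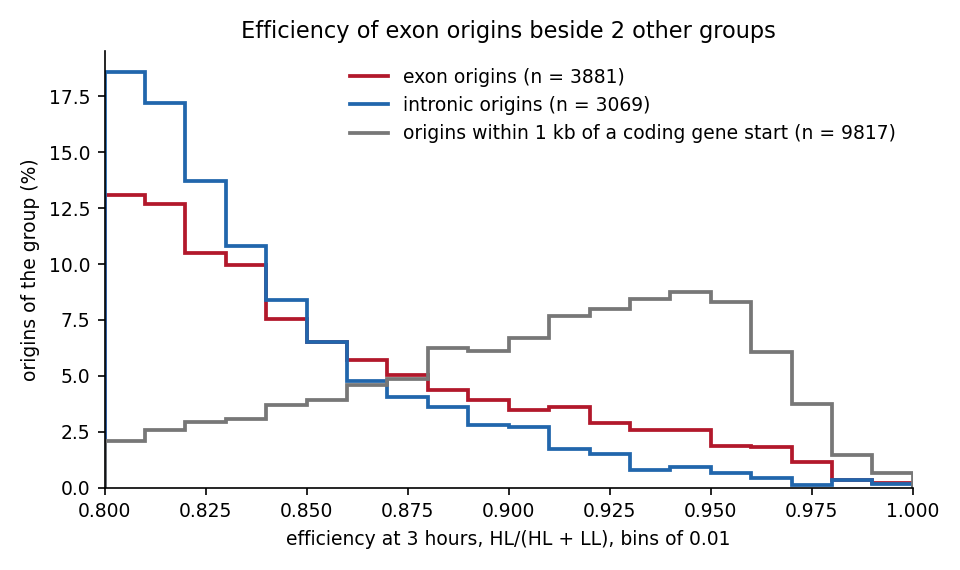
Distribution of the 3-hour efficiency, HL/(HL + LL), in bins of 0.01, as a share of each group: exon origins (red), intronic origins (blue) and origins within 1 kb of a coding gene start (grey). Exon and intronic origins pile up near the limit of 0.8, with means of 0.858 and 0.842, while origins at gene starts have a mean of 0.907.

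Differences were tested on the means of 23 chromosomes, 1 to 22 and X, by flipping their signs 100000 times (permutation test, two-sided, Benjamini-Hochberg over 15 tests, smallest possible unadjusted p 1e-05). Chromosomes are blocks of 1 map and not replicates of the experiment. Exon origins were more efficient than intronic ones by 0.0198 on average over chromosomes (SD over chromosomes 0.0125, higher on 22 of 23, adjusted permutation p = 1.5e-05), and less efficient than all 20024 other origins by the same amount (-0.0198, SD 0.0107, higher on 1 of 23, adjusted permutation p = 1.5e-05). In this and every later comparison, all other origins include the 9817 within 1 kb of a coding gene start, which the rule bars from the exon origins. Where the rule was changed, all other origins were every origin outside the changed rule. They then took in the exon origins left out and were not held to the changed limit themselves. Base composition moved with the first difference. Compared within 10 groups of GC content, exon origins exceeded intronic ones by only 0.0044 (higher on 14 of 23 chromosomes, adjusted permutation p = 0.017), while the difference from all other origins was -0.0151 (adjusted permutation p = 1.5e-05). With the 5' end of every transcript kept at more than 1 kb, the difference from intronic origins was 0.00896 (20 of 23, adjusted permutation p = 0.0076) and that from all other origins -0.0312, and with at least 50% of the origin coding the latter was -0.0111 (adjusted permutation p = 0.0059).

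The groups also differed in the short reaction. Of the exon origins 891 (23%, exact Clopper-Pearson 95% interval 21.6 to 24.3%) overlapped an origin called at 15 minutes, where 40.1% of all 3-hour origins did. The share was 6.65% of intronic origins (204, interval 5.79 to 7.59%), 43.5% of all other origins and 68.7% of origins near coding gene starts. These intervals cover counting error only. Exon origins exceeded intronic ones by 19.3 percentage points (SD 10.3, higher on 22 of 23 chromosomes, adjusted permutation p = 1.5e-05) and by 10.5 points within GC groups (adjusted permutation p = 6.8e-05). Exon origins were also longer, with a median of 700 bp against 400 bp in introns. The difference was 14.3 points within length classes, and 13.4 points when at least 50% of the origin had to be covered at 15 minutes. Exon origins were called less often than all other origins (difference -17.6 points, SD 8.19, lower on 23 of 23, adjusted permutation p = 1.5e-05). Since all other origins include those near coding gene starts, the direction of that difference was in part set by the rule. With every transcript 5' end kept at a distance, the difference from intronic origins was 8.84 points (adjusted permutation p = 0.0019). That from all other origins, which then took in the exon origins near such ends, was -28.8 points (adjusted permutation p = 1.5e-05). With at least 50% of the origin coding, the difference from introns was 12.8 points.

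Early calling followed efficiency within the exon origins. At 15 minutes 498 of 711 high efficiency exon origins (70%, interval 66.5 to 73.4%), 310 of 1315 medium (23.6%, 21.3 to 26%) and 83 of 1855 low efficiency ones (4.47%, 3.58 to 5.52%) were called. In the high class 85.7% of all other origins and 47.6% of intronic origins were called. In comparisons added after these values were seen, and adjusted over 11 such tests, the share at matched efficiency class was lower in exon origins than in all other origins by a difference of -5.87 points (SD 4.58, higher on 1 of 23 chromosomes, adjusted permutation p = 1.6e-05) and higher than in intronic origins by 12.8 points (SD 8.22, higher on 21 of 23, adjusted permutation p = 2.7e-05). Length moved with these shares: 3.16% of exon origins of 300 bp and 39.2% of those of 1000 bp and over were called, and matching on length class as well brought the difference from introns down to 4.1 points (adjusted permutation p = 0.0017). The Z-scores of the 891 called exon origins ran from -2.05 to 2.11 with a median of -0.32. Across these origins Pearson's r between Z-score and 3-hour efficiency was 0.404 (Spearman's rho 0.415, n = 891), as a description of origins that share the same 2 libraries and span a wide range of GC content.

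SNS-seq peaks lay over most exon origins. In both fractions a peak overlapped 3225 (83.1%, interval 81.9 to 84.3%), where 77.7% of all 3-hour origins had one, and in either fraction 3751 (96.7%), where 91.6% of all origins did. Peaks of both fractions covered 51.6% of intronic and 76.6% of all other origins. The excess over intronic origins was 32.6 points (SD 11.6, higher on 22 of 23 chromosomes, adjusted permutation p = 1.5e-05), and it was 14 points within GC groups (adjusted permutation p = 2.7e-05), 19.8 points within length classes, 19.4 points for a peak of either fraction and 12.7 points when peaks within 5 kb were counted. The excess over all other origins was 6.93 points (SD 8.05, 19 of 23, adjusted permutation p = 0.00087). It was 0.929 points (adjusted permutation p = 0.7) when exon origins within 1 kb of a transcript 5' end were counted among the other origins. Exon origins stood above all other origins by SNS-seq cover in the main comparison and below them by efficiency. Intronic origins were lowest of the groups on both measures. Origins near coding gene starts were highest on both, with peaks of both fractions over 91.7%.

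**Figure D2:**
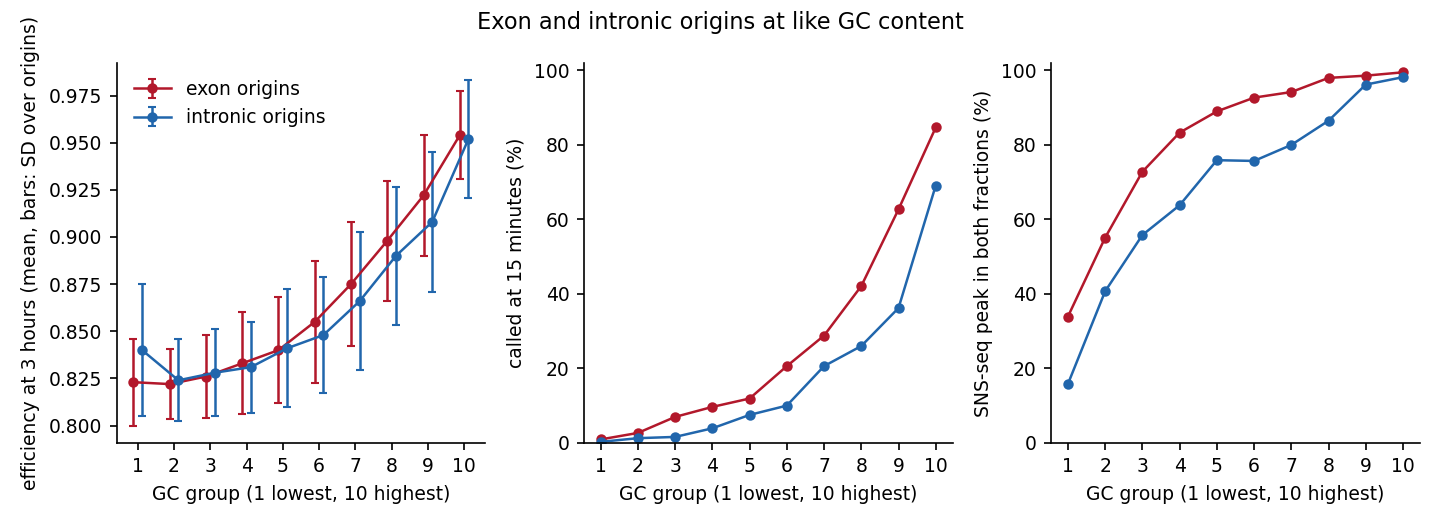
Exon (red) and intronic (blue) origins in 10 groups of equal size of all origins by GC content, from under 61.5% in group 1 to over 72.9% in group 10: mean 3-hour efficiency with the SD over origins, share called at 15 minutes, and share with an SNS-seq peak in both fractions. Efficiency rises from 0.823 to 0.954 in exon origins and is below that of intronic origins in group 1 (0.823 against 0.84) and above it in group 10 (0.954 against 0.952), while both shares are higher in exon origins in every group.

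Base composition moved with efficiency among the exon origins, and its part in the other differences was tested only by matching. GC content of the interval was 66.9% on average (SD 3.57), against 63.6% (SD 5.1) in intronic and 67% (SD 5.2) in all other origins. The difference from introns was 3.64 points (SD 1.21, higher on 23 of 23 chromosomes, adjusted permutation p = 1.5e-05), and that from all other origins did not pass the test (0.132 points, SD 0.813, adjusted permutation p = 0.5). The latter call depended on the rule: the difference was 0.931 points with at least 50% coding (adjusted permutation p = 0.0078), -0.741 points with every transcript 5' end kept at a distance (adjusted permutation p = 0.0041) and -0.482 points over the central 300 bp (adjusted permutation p = 0.027). Over exon origins the efficiency correlated with GC content (Pearson's r 0.752, Spearman's rho 0.731, n = 3881) and with the observed over expected CpG ratio (r 0.734, rho 0.691), and hardly with the coding share of the origin (r 0.0725, rho 0.053). These correlations are descriptions across intervals of 1 map, whose reads share the base composition. From the lowest to the highest of the 10 GC groups, mean efficiency went from 0.823 (SD 0.023, n = 218) to 0.954 (SD 0.0235, n = 215), calling at 15 minutes from 0.917 to 84.7% and SNS-seq cover in both fractions from 33.9 to 99.5%.

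The groups differed in CpG islands. A criterion of more than 50% GC and an observed over expected CpG ratio above 0.6 over the interval was met by 1230 exon origins (31.7%), 11.6% of intronic, 57.9% of all other origins and 87.9% of origins at coding gene starts. The share was 22.9 points above intronic (SD 13, 22 of 23 chromosomes) and differed from all other origins by -22.5 points (SD 9.55, lower on 22 of 23), each with adjusted permutation p = 1.5e-05. All other origins include those at coding gene starts, which the rule bars from the exon origins, so the second difference was in part set by the rule. With every transcript 5' end kept at a distance the differences were 11.3 and -35 points, the latter with the exon origins left out counted among the others. Within GC groups the difference from intronic origins was 10.8 points. Of the high efficiency exon origins 88.2% met it, and of the low efficiency ones 5.82%.

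G4 motifs, defined as 4 G runs of 3 or more bases parted by 1 to 7 nt and searched on both strands, were present in 2809 exon origins (72.4%), 56.3% of intronic and 70.7% of all other origins. The difference from introns was 15.7 points (SD 8.65, 22 of 23, adjusted permutation p = 2.7e-05), but it was 9.52 points within GC groups, 2.74 points (adjusted permutation p = 0.072) between origins of like length and -3.09 points when at least 50% of the origin had to be coding. The motifs lay mainly in the non-coding part of the same origins. Coding bases held 1133 motifs, or 0.886 per kb over 1279 kb, and non-coding bases 7744, or 2.72 per kb over 2842 kb. Within the 2584 origins that held at least 100 bp of each kind, the density was lower in the coding part on every one of 23 chromosomes (mean difference -2.08 per kb, SD 0.502, adjusted permutation p = 1.6e-05, added after seeing the data). The coding bases of these origins were slightly richer in GC than the rest, at 67% (SD 5.08) against 66.4% (SD 4.22), a difference of 0.494 points over chromosomes (SD 0.744, 15 of 23, adjusted permutation p = 0.0047). CpG dinucleotides went the other way from the motifs, at 7.19 per 100 coding bases and 4.76 per 100 non-coding bases.

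A difference in G4 motifs between the strands of the gene was not detected. The coding strand held 4420 motifs in total and the template strand 4457. The mean over chromosomes of coding minus template was 0.0176 motifs per origin (SD 0.218, higher on 10 and lower on 12 of 23, adjusted permutation p = 0.7). Motifs were on the coding strand only in 859 exon origins, on the template strand only in 826, on both in 1124 and on neither in 1072.

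Codons inside exon origins were richer in GC than other codons of the same transcripts. In 2379 genes with at least 20 codons inside and outside, GC at the third codon position, where most changes are silent, was 82% inside (SD over genes 9.12) and 73.3% outside (SD 12), and it was higher inside in 1792 genes (75.3%). Over chromosomes the difference was 11 points (SD 4.61, 23 of 23, adjusted permutation p = 1.5e-05), and 7.66 points when the outside codons were taken within 5 kb of the origin. The first and second positions also differed, by 7.47 and 7.32 points over chromosomes. Origins lie in GC-rich sequence and the codons were not matched for the GC content around them. The differences therefore describe where origins lie and do not bear on codons as such.

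Coding and intronic sequence were also compared from the side of the genome, with 100 bp windows more than 1 kb from gene starts. The windows were wholly coding or wholly intronic, and any 3-hour origin counted as cover, also one outside the exon rule. A 3-hour origin overlapped 9949 of 143862 coding windows (6.92%) and 51860 of 11383535 intronic windows (0.456%). The ratio of the shares was smaller between windows of like GC content. Among windows of 60 to under 70% GC, 13.7% of coding and 5.92% of intronic windows were covered, and among those of 70 to under 80% GC, 49.3% and 34.7%. At matched GC in bins of 2 points, cover of coding windows was 2.26 points higher (SD 1.37, 22 of 23 chromosomes, adjusted permutation p = 1.5e-05). When the GC content of the 500 bp around each window was matched instead, the difference turned to -0.6 points (positive on 7 of 23, adjusted permutation p = 0.0047).

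**Figure D3:**
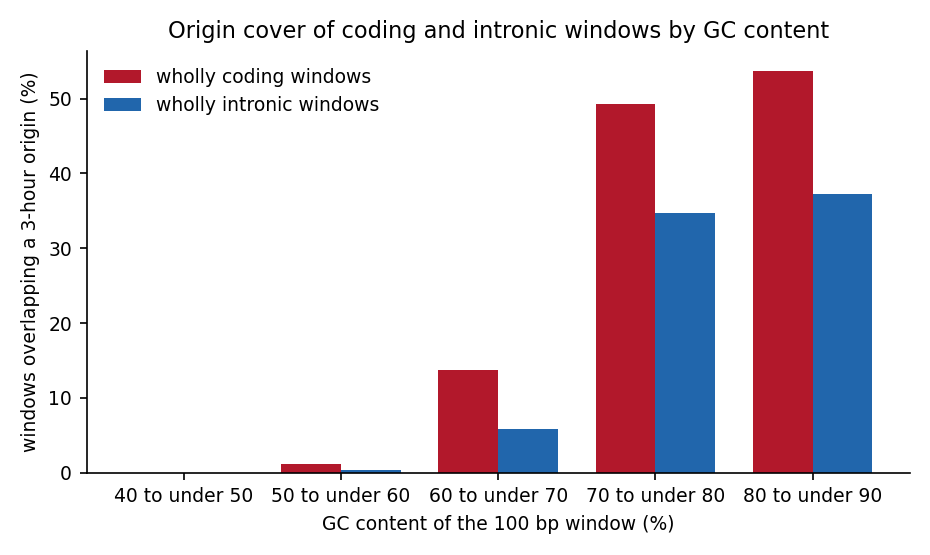
Share of 100 bp windows that overlap a 3-hour origin, by the GC content of the window, for wholly coding (red) and wholly intronic (blue) windows more than 1 kb from gene starts. Cover climbs from 1.17 and 0.417% at 50 to under 60% GC to 49.3 and 34.7% at 70 to under 80% GC.

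Exon origins near transcript 5' ends were more efficient and more often called early than those farther away. The 2086 within 1 kb of such an end had a mean efficiency of 0.866 (SD 0.0499), and 660 (31.6%, interval 29.6 to 33.7%) were called at 15 minutes. The 1795 farther away had a mean of 0.849 (SD 0.0415), and 231 (12.9%, 11.4 to 14.5%) were called. The differences, 0.0221 in efficiency (SD 0.0144, 22 of 23 chromosomes), 21.7 points in calling (SD 11.2, 23 of 23) and 24.6 points in the CpG island criterion (SD 12.7, 23 of 23), each had an adjusted permutation p of 1.6e-05 in tests added after seeing the data. Within GC groups the difference in efficiency was 0.00811 (adjusted permutation p = 2.7e-05).

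Position along the gene moved with these values. The 800 exon origins that touched the first coding exon had a mean efficiency of 0.897 (SD 0.0503), 57.4% were called at 15 minutes and 91.2% lay within 1 kb of a transcript 5' end. The 70 of them that did not had a mean of 0.863 (SD 0.0481), and 18.6% were called. Origins on internal coding exons only had a mean of 0.844 (SD 0.0377, n = 2276), with 11.5% called, and those that touched the last coding exon 0.857 (SD 0.0438, n = 695), with 18.4% called. Along the coding sequence, 43.8% of exon origins in its first 20% and between 13.4 and 16.7% in the 4 later stretches of like size were called at 15 minutes. The share of coding exons touched was nearly level, at 4.59% in the first stretch and 3.5 to 3.78% in the others.

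**Figure D4:**
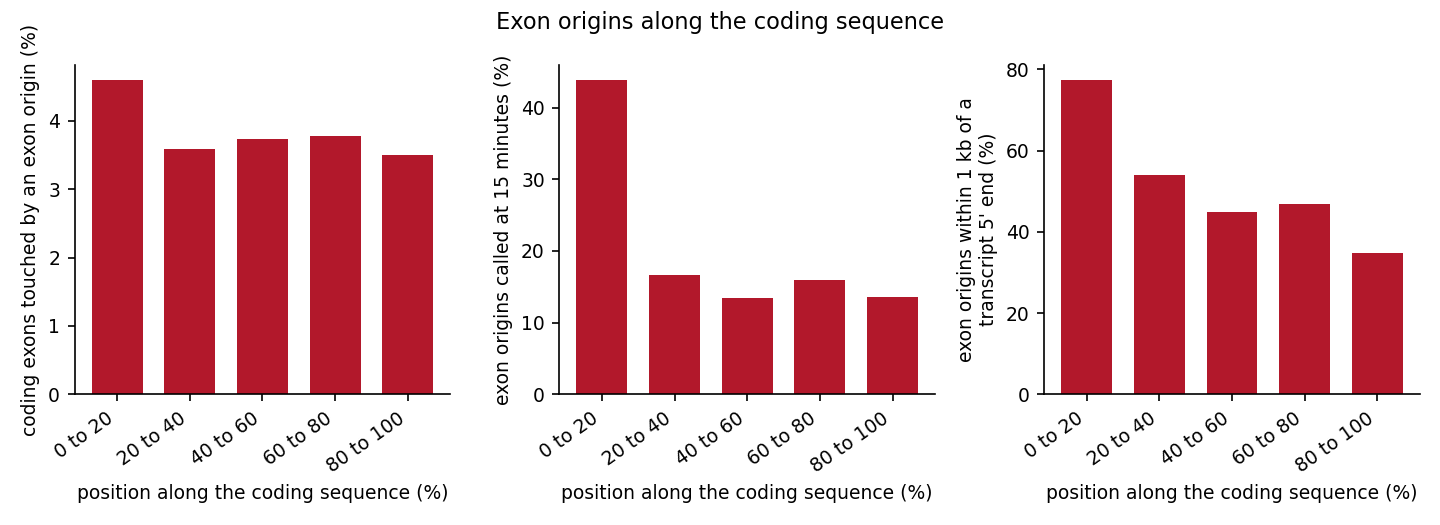
Exon origins in 5 equal stretches of the coding sequence, from its 5' end (0%) to its 3' end (100%): share of canonical coding exons touched, share of exon origins called at 15 minutes, and share within 1 kb of a transcript 5' end. The first stretch stands at 43.8% called and 77.3% near a transcript 5' end, while exons were touched at 3.5 to 4.59% throughout.

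The 1136 origins on internal coding exons only, more than 1 kb from every transcript 5' end, had SNS-seq peaks more often than intronic origins, while a difference in efficiency was not detected. Their mean efficiency was 0.841 (SD 0.0365), equal to 0.841 (SD 0.0357) of the 2721 intronic origins held to the same distance. The difference over 22 chromosomes with enough origins was 0.00151 (SD 0.00838, 12 of 22 positive, adjusted permutation p = 0.41), and -0.00375 within GC groups (5 of 22 positive, adjusted permutation p = 0.024). At 15 minutes 104 (9.15%, interval 7.54 to 11%) were called, against 5.4% (4.58 to 6.32%). That difference of 5.24 points (SD 9.44, 16 of 22, adjusted permutation p = 0.0038) was 1.58 points within GC groups (adjusted permutation p = 0.61) and 1.84 points within length classes (adjusted permutation p = 0.26). Peaks of both SNS-seq fractions lay over 73.9%, against 49.3%, a difference of 25.4 points (SD 11, 22 of 22, adjusted permutation p = 1.6e-05) that was 11.9 points within GC groups (adjusted permutation p = 0.0012). GC content was 65.8% (SD 3.29) against 63.4% (SD 5.1), higher on all 22 chromosomes (2.54 points, SD 1.15, adjusted permutation p = 1.6e-05). These comparisons were added after the exon types had been counted.

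Values on both sides of the 1 kb limit were as follows. The 199 exon origins from 1001 to 1500 bp from the nearest gene start had a median efficiency of 0.867 and 32.7% were called at 15 minutes. The 260 origins from 501 to 1000 bp that met the other conditions had a median of 0.891 and 48.1% were called. The median exon origin lay 9370 bp from the nearest gene start and 17600 bp from the start of its own gene.

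Exon origins were crowded. The nearest other origin was 3800 bp away at the median, against 5500 bp for intronic origins and 10600 bp for all origins. Ini-domains, groups of at least 6 origins joined within 100 kb, held 3326 exon origins (85.7%), 80.3% of intronic and 66.7% of all origins. For 2804 exon origins (72.2%) an origin was also called within 1 kb of the start of the same gene. The start origin, taken as the most efficient where several were called, was the more efficient of the pair in 2141 cases (76.4%), with means of 0.898 (SD 0.0459) and 0.852 (SD 0.0433) for start and exon. The pairs came from 1788 genes, and a start origin was counted once for each exon origin of its gene.

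The exon origins lay in 2651 protein-coding genes, 13.2% of 20033. A single exon origin was found in 1932 genes, 444 held 2 and 275 held 3 or more. Of the 178912 canonical coding exons more than 1 kb from gene starts, 6835 (3.82%) were touched. Exons of under 100 bp were touched in 3.26% of cases and those of 1000 bp and over in 12.9%, the longer ones offering more bases. Across the 2651 genes the number of exon origins and the coding length had a Spearman's rho of 0.353 (Pearson's r 0.39). Of these genes 67.4% had an origin within 1 kb of their start, against 55.4% of all protein-coding genes.

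Chromosome 19, the most gene-dense, held 791 exon origins (20.4% of them), which were 33.2% of its own origins and 357 per Mb of coding sequence. Chromosome X held 31, or 23.9 per Mb. Median efficiency by chromosome ran from 0.83 on chromosome 9 (n = 203) to 0.91 on chromosomes 13 (n = 32) and 18 (n = 39). The share called at 15 minutes ran from 12.8% on chromosome 21 (n = 47) to 46.9% on chromosome 13 and was 42.7% on chromosome 8 (n = 89).

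An efficiency of 1 was listed for 7 exon origins, in TRAPPC12, RNF39, KBTBD11, TUSC3, DMTN, TACC1 and CDH22. KBTBD11, TUSC3, DMTN and TACC1 all lie on chromosome 8. SH2B3, an adaptor of cytokine signalling, CASKIN1 and ERMP1 followed at 0.9924, 0.9907 and 0.9888. All 10 had SNS-seq peaks in both fractions and 9 were called at 15 minutes, the exception being RNF39. Of all high efficiency exon origins, 98.5% had such peaks and 70% were called. The 10 named origins were short, at 300 to 600 bp, with 72.2 to 78.5% GC.

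The most efficient exon origins were of several kinds. In TRAPPC12, chr2:3388001-3388400 was wholly coding, lay 8326 bp inside the gene on its first coding exon, the one printed above, and contained a transcript 5' end. The origin of RNF39, chr6:30071301-30071600, was wholly coding in the last of 4 coding exons, 3095 bp from the nearest transcript 5' end, and its gene start had an origin of 0.8506 only. The single coding exon of KBTBD11 held an origin 27524 bp from its gene start and 21305 bp from any transcript 5' end, with a Z-score of 1.66 at 15 minutes, and the start of that gene also had an origin of efficiency 1. TUSC3, which takes part in N-glycosylation, had its origin on the first coding exon at a transcript 5' end 122986 bp from the gene start, where no origin was called. CDH22, a cadherin, had its origin in the last coding exon, 133598 bp from the gene start.

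At the lower limit PRKCZ (chr1:2056201-2056500), KCNT1, a sodium-activated potassium channel (chr9:135778801-135779700), and IL18BP, which binds interleukin 18 (chr11:72000501-72000900), had efficiencies of 0.8. They held 17, 134 and 57 coding bases. None was called at 15 minutes, where 4.47% of all low efficiency exon origins were. The KCNT1 origin had SNS-seq peaks in both fractions, PRKCZ in the 2 to 4 kb fraction and IL18BP in neither.

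The highest Z-scores at 15 minutes belonged to origins at transcript 5' ends inside genes. They were 2.11 in TAF4, 2.1 in KMT5A, the histone H4K20 monomethyltransferase, 2.09 in MCMBP, which binds the MCM helicase, 1.91 in TNRC6A, a protein of microRNA silencing, and 1.9 in SET, a histone chaperone. TAF4, MCMBP, TNRC6A and SET contained a transcript 5' end and touched the first coding exon. The KMT5A origin lay 18 bp from one and touched the second coding exon. Their 3-hour efficiencies were 0.923, 0.9256, 0.9331, 0.9704 and 0.971, all in the high class. Their coding bases numbered 350, 54, 58, 5 and 73.

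The longest exon origins spanned many exons and were of low or medium efficiency. In JAG2 the interval chr14:105142901-105157100, 14200 bp long, touched 23 of 26 coding exons, held 15 G4 motifs on the coding and 16 on the template strand and had an efficiency of 0.8288. AATK, a kinase gene, had 11800 bp at 0.8528, and PLEC, the gene of the cytoskeletal linker plectin, 10900 bp at 0.8726. MEGF6, with many EGF-like repeats, had 10800 bp at 0.8219. FGFR3, a growth factor receptor often mutated in bladder cancer, had 10300 bp at 0.8263, over 16 of 17 coding exons. AATK and PLEC were called at 15 minutes with Z-scores of -1.73 and -1.7, and JAG2, MEGF6 and FGFR3 were not called.

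The most coding bases were held by ABCA2, a lipid transporter, with 4550 coding bases in 30 of 49 exons at an efficiency of 0.8308. KIF26A, a kinesin-like gene, held 4446 at 0.8862, ZNF469 4230 at 0.8975, AATK 3788 and ZNF831 3681 at 0.8254. The ZNF469 and ZNF831 origins, 88.1 and 99.5% coding, each lay in 1 very long exon, of 11859 and 3738 bp.

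The genes with most exon origins were long multi-exon genes, and most of their origins were weak. HMCN2, a hemicentin of the extracellular matrix, held 11, CFAP46, a ciliary protein, 10, and COL18A1, a basement membrane collagen, and MEGF6 9 each. NOTCH1 and KCNT1 held 8 each, and SPTBN4, NOTCH3 and KNDC1 are shown out of 11 genes with 7 each because their summed efficiency was highest. Median efficiencies were between 0.822 and 0.837 in these genes with the exception of SPTBN4. In HMCN2 the 11 origins ran from 0.8024 to 0.9025 with a median of 0.825, none was called at 15 minutes and 3 had SNS-seq peaks in both fractions. In CFAP46, COL18A1 and MEGF6 none was called at 15 minutes either, but all 10, 9 and 9 had SNS-seq peaks in both fractions. Of all exon origins, 23% were called at 15 minutes and 83.1% had peaks in both fractions. Only 1 of the 11 HMCN2 origins lay within 1 kb of a transcript 5' end.

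SPTBN4, which codes for a spectrin of axon initial segments, was thus chosen in part for its efficiencies, which are given as a description. Its 7 origins had efficiencies of 0.8914, 0.8986, 0.9005, 0.9041, 0.9071, 0.9259 and 0.9582, 5 were called at 15 minutes and all 7 had SNS-seq peaks in both fractions. The 7 NOTCH3 origins stood at 0.8134, 0.8163, 0.8209, 0.83, 0.8483, 0.8974 and 0.9621, so that 5 of them lay below every SPTBN4 origin. The NOTCH3 origin of 0.9621, chr19:15177501-15178100 in coding exon 24, was 76.5% GC and had a Z-score of 1.15, while the other NOTCH3 intervals held 61 to 68.7% GC. Exon origins covered 77.3% of the coding sequence of MEGF6, 70.1% of KNDC1, 56.9% of NOTCH1 and 16.8% of HMCN2.

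**Figure D5:**
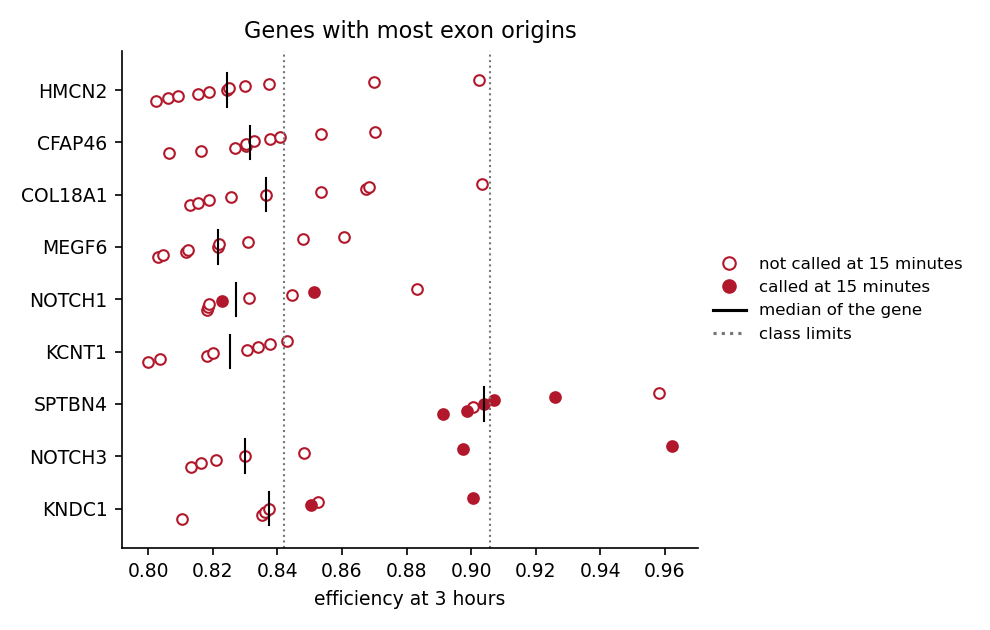
Efficiency at 3 hours of each exon origin in 9 of the genes that hold most of them (filled: called at 15 minutes; open: not called; bar: median of the gene; dotted lines: class limits at 0.842 and 0.906). SPTBN4 has the highest median, 0.904, and 5 of 7 origins called, while the other medians lie between 0.822 and 0.837.

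Gene families were counted by symbol, with every member in the count, beside 13.2% of all protein-coding genes with an exon origin. All 3 SHANK genes, scaffolds of excitatory synapses, held exon origins, 11 in all, with a median efficiency of 0.831 and 4 called at 15 minutes, where 23% of all exon origins were called. All 3 CELSR cadherins held 2 each. Of the voltage-gated calcium channel alpha 1 genes 7 of 10 held 25 exon origins, from 0.801 to 0.973 with a median of 0.835, of which 5 were called. Plexins, receptors for semaphorins, held 13 in 5 of 9 genes, with none called at 15 minutes. An approximate upper limit, 3 divided by the number of origins, is 23.1%, beside 23% of all exon origins. It takes origins of the same gene as independent, so whether the shares differ cannot be told. NOTCH receptors held 15 in 2 of 4 genes, and KMT2 methyltransferases 4 in 2 of 5.

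Collagens held 46 exon origins in 19 of 44 genes (43.2%). Their median efficiency was 0.825, the highest collagen value was 0.9035, in COL18A1, and 1 of 46 was called at 15 minutes, where 23% of all exon origins were. Laminins held 9 in 3 of 12 genes, 7 of them in LAMA5, with a median of 0.826. ADAMTS proteases held 8 in 4 of 19 genes, with a median of 0.863.

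Large families stood nearer to or below the share of all genes. SLC transporters held 80 exon origins in 63 of 373 genes (16.9%), and HOX genes 6 in 6 of 39 (15.4%). ZNF genes held 48 in 40 of 515 (7.77%), with a median efficiency of 0.869 and a median coding share of 83.1%. Keratins held 2 in 2 of 55 genes and protocadherins 1 in 66 genes, in PCDH8 at 0.957. The 4 FAT cadherin genes held none.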

How the data were processed

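Ini-seq 2 at 3 hours and 15 minutes and SNS-seq of 2 strand fractions were analysed, 1 deposited list each; the genomic DNA input was not analysed here. Reads were aligned by the authors to hg38 with Bowtie2, HL and LL reads were counted in 100 bp windows per library total, and enriched windows were joined and scored. The deposited 3-hour value is a fraction, HL/(HL + LL), from 2 pooled biological replicates, although its heading names a Z-score; the authors' 15-minute value is a score, a Z-score. SNS-seq peaks were called with MACS2 against genomic DNA. Joining of windows makes 1 long interval out of neighbouring signals, and intervals under 0.8 are absent, which narrows differences in efficiency.

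Overlap means at least 1 bp. The 3-hour list was divided into 3 classes of equal size. Chromosome means were compared by sign flips, with at least 5 origins on each side, and tested on simulated data. Intervals are exact Clopper-Pearson at 95%. The members and lists were chosen with earlier results of these data known. Named were the 10 highest and 3 lowest efficiencies, the 5 highest Z-scores, the 5 longest, the 5 with most coding bases, 10 genes with most exon origins (ties at 7 broken by summed efficiency), of which 1 is not reported here, and 15 families. Sequences were the first by rank that touched no UTR and did not lie on chromosome 8. Alternatives changed the coding overlap, distance to starts, transcripts, GC and length matching, SNS-seq fraction, G4 loops and chromosome 19. The work was done in Python 3.11.15 with pandas 2.3.3, numpy 2.4.6 and scipy 1.17.1, and plots were drawn with matplotlib 3.10.9.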

Additional observations from a re-analysis of the deposited data

Results flagged for a closer look

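Of the 10181 origins called at 15 minutes, 1036 met the same exon rule, and 98 of these overlapped no 3-hour origin, which is data outside the 3-hour list on which all comparisons rest. They made up 19.7% of the 498 origins of the 15-minute list without a 3-hour origin, where 10.2% of the whole 15-minute list met the rule. Their Z-scores ran from -2.01 to 2.1 with a median of -0.197. Why they are missing from the 3-hour list was not tested.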

How the results depend on the processing

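Of 149 alternatives run for 15 main comparisons, 11 added comparisons and the number of exon origins, 126 of a tested comparison kept their direction and their side of the threshold, and 2 counts of exon origins (4145 and 2732) stayed within 1.5 times the main count. The number of exon origins, 3881, fell to 1570 with the centre coding, 1010 with at least 50% coding and 1795 with every transcript 5' end kept at a distance. The G4 difference from introns became -3.09 points with at least 50% coding and 2.74 within length classes. Against all other origins, the G4 difference of 0.841 became -8.86 with the centre coding, -18.7 with at least 50% coding, -5.66 with every transcript 5' end, -0.0772 within length classes and 1.92 with loops of up to 12 nt. The GC difference of 0.132 became 0.622 with the centre coding, 0.931 with at least 50% coding, -0.0534 beyond 5 kb, -0.741 with every transcript 5' end and -0.482 over the central 300 bp. The SNS-seq difference became 0.929 with every transcript 5' end. The difference between G4 strands was -0.0567 with loops of up to 12 nt. The cover of coding windows was -0.6 at matched GC of 500 bp. For internal coding exons away from every transcript 5' end, the efficiency difference was -0.00375 within GC groups, and the 15-minute difference was 1.84 within length classes and 1.58 within GC groups. Fewer exon origins enter under the stricter overlaps and distances, and those left out were then counted among all other origins. Why the values changed was not tested. Leaving out chromosome 19 changed no call.

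Each condition is 1 list, at 3 hours with its replicates pooled, so no list holds separate replicate values, the 3-hour values are cut at 0.8, and no list gives depth, so tests over chromosomes describe how even a difference is along 1 map. Long intervals overlap more peaks and more annotation than short ones. No paired analysis was possible because each group holds 1 list.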
